A study of Mus musculus with 6 samples.

Results

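A set of 8 transcripts of cytosolic and mitochondrial heat shock chaperones were followed in ribosome profiling of the mouse pancreatic acinar line 266-6, with and without Mettl18. They are Hspa8, Dnajb1, Hsp90ab1, Hsp90aa1, Stip1, Cct2, Hspd1 and Hspa9. The list began with 10 Ensembl transcript identifiers, each paired with a gene symbol and an expected length value. The 8 rows whose deposited length value equalled that number, which is the count of protein residues minus 9, were kept out of 142314 rows in all. The other 2 identifiers had length values of 805 and 833 in place of 849 and 832 and are given below by identifier only. All 8 kept transcripts passed the filter on low counts.

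The groups were wild type (WT) and Mettl18 knockout (KO), with 3 libraries each. Both carried a transfected plasmid for FLAG-tagged Reg1 and were grown for 48 h. All lysates contained cycloheximide at 100 μg/ml, which holds ribosomes on the mRNA, before RNase I digestion left the ribosome-protected fragments (footprints). Nothing in the labels ties the libraries to separate cultures or clones, and the spread behind each p-value may therefore be technical. Total RNA was not used here, so a footprint level combines the amount of mRNA and its translation. Library totals over distinct rows ranged between 3792964 and 5131937 in WT and between 5379044 and 7106203 in KO. KO replicates 2 and 3 were much closer to each other than any other pair of a genotype (chi-square per degree of freedom 1.34, against 4.73 to 11.8). The targeted gene, acinar markers and markers of other cell types were not analysed here, because identifiers are not paired with symbols in the files.

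METTL18 methylates a histidine in RPL3, a protein of the large ribosomal subunit, and the study asked how its loss affects translation and protein homeostasis in acinar cells, which make large amounts of secreted enzyme. Many heat shock chaperones bind unfolded or partly folded proteins and use cycles of ATP to help them fold, while others act as their partners. HSC70 (Hspa8) takes clients from J-domain proteins such as DNAJB1, and STIP1 hands many of them on to the HSP90 proteins. The TRiC complex, which contains CCT2, encloses clients such as actin and tubulin, while mortalin (Hspa9) draws proteins into the mitochondrial matrix and HSP60 (Hspd1) folds them there. Many genes of this class are induced by heat shock factor 1, which binds repeats of the letters GAA in alternating orientation.

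The letters that heat shock factor 1 is known to bind are shown first, where a sequence was at hand. RefSeq promoter windows of GRCm38.p6 (250 bases before to 50 after a start) were matched by symbol for Hspd1, Dnajb1, Cct2 and Stip1. Hspa8, Hsp90ab1, Hsp90aa1 and Hspa9 had no sequence matched here. In the 2 lines that follow, the repeats are in capitals, in the direction of the gene.
Hspd1: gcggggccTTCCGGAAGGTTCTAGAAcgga
Cct2: caagtgaaGAAGTTTCtagcaggac
The Hspd1 stretch lies at chr1:55088055-55088084 on the minus strand, and its run of 4 repeats begins at position -144 from one of 2 annotated starts. The letters searched were TTCNNGAA and GAANNTTC, each of which reads the same on both strands, and longer runs in which they overlap by 1 repeat. A run of 4 that begins with TTC was present in 5 of all 32851 windows (0.0152%), and a run of 3 in 0.603%. The Cct2 stretch, at chr10:117063401-117063425 on the minus strand, holds GAANNTTC alone, at position -42 from one of 2 starts. Both stretches lie inside the spans given below for their genes, and the window of the other start of each gene held no match. A pair of repeats, TTCNNGAA or GAANNTTC, was found in 15.1% of all windows, so the Cct2 match is a common one. None of these letters matched in the 2 windows of Dnajb1 or the window of Stip1, which says nothing of sites elsewhere. A match describes letters only and is not a bound site.

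In Mettl18 KO cells, footprints on Hsp90ab1 and Cct2 rose, by 1.79-fold and 1.63-fold, and those on Hspa9 fell to 0.509 of the WT level. Changes on the other 5 transcripts did not pass the test, and the 3 calls lay near its threshold. Thus 2 of 8 transcripts rose and 1 fell, where 5.14% of all 30588 transcripts tested rose and 4.30% fell. All but Dnajb1 averaged at least 100 CPM, and among the 1877 transcripts at that level 10.1% rose and 4.32% fell. The median log2 fold change was 0.30 over the 8 transcripts, -0.06 over all tested and 0.16 over those at 100 CPM or more. Calls required a Benjamini-Hochberg adjusted p under 0.05 over all transcripts in edgeR's quasi-likelihood test. Levels are in CPM, counts relative to the library total after TMM scaling.

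**Figure D1:**
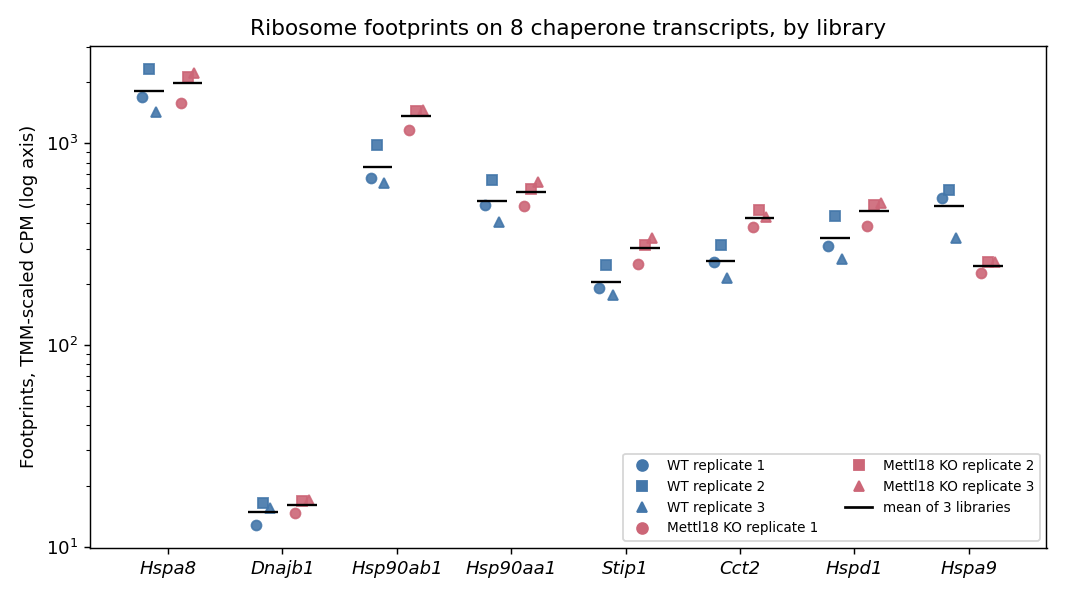
Footprint level of each chaperone transcript (TMM-scaled CPM, log axis) in every library, with WT in blue, Mettl18 KO in red, a marker shape per replicate and a black line at the mean of 3 libraries. The 3 KO libraries lie above all WT libraries for Hsp90ab1, Stip1 and Cct2 and below them for Hspa9, and the groups overlap for the other 4.

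The HSP90 proteins hold kinases, steroid receptors and many other clients in a state ready for activation, and mouse cells make 2 cytosolic forms. Hsp90ab1 (ENSMUST00000024739.13, length value 715, gene at chr17:45567778-45573261) encodes the largely constitutive form. It had 673.6, 974.4 and 635.5 CPM in WT replicates 1, 2 and 3 and 1168, 1450 and 1458 CPM in the KO replicates. Every KO library lay above every WT library. Its mean went from 761.2 ± 185.7 to 1358 ± 165.2 CPM (SD, n = 3 each), which is 0.84 ± 0.23 (SE) as a log2 fold change (edgeR adjusted p = 0.0475). The 95% interval of this change ran from 0.33 to 1.34.

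Hsp90aa1 (ENSMUST00000021698.12, length value 724, gene at chr12:110691036-110696395) encodes the form that stress induces more strongly. It had 493.9, 656.4 and 406.7 CPM in the WT libraries and 485.6, 590.6 and 643.6 CPM in the KO libraries. The groups overlapped fully, with WT replicate 2 the highest of all. The log2 fold change was 0.14 ± 0.22 (SE; edgeR adjusted p = 0.711), and its 95% interval, -0.34 to 0.63, still includes a moderate change either way. The 2 genes are near-identical in stretches, and how footprints that match both were counted is not given in the sources used here, so the split between them is uncertain.

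Within a library, the ratio of Hsp90aa1 to Hsp90ab1 counts does not depend on depth or scaling. It was 0.733, 0.674 and 0.640 in WT and 0.416, 0.407 and 0.441 in KO. The groups were far apart compared with their spread: the log2 ratio was lower by 0.69 ± 0.07 (SE) in KO, a 1.62-fold shift toward Hsp90ab1. The exact two-sided permutation p was 0.1, the smallest that 3 against 3 libraries allow, and 0.125 after adjustment over the 5 ratios compared. How often ratios of other transcript pairs separate the groups was not computed, so no separation of a ratio here is shown to be unusual. Leaving out each library kept the shift between -0.74 and -0.64 on the log2 scale. The levels of both transcripts moved together between libraries of a genotype, and their ratio varied less than either.

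Stip1 (ENSMUST00000025918.8, length value 534, gene at chr19:7020696-7040026) encodes the adaptor that joins HSC70 to HSP90. It had 190.7, 248.3 and 176.8 CPM in WT and 251.1, 313.4 and 339.5 CPM in KO. Every KO library was above every WT library, though KO replicate 1 exceeded WT replicate 2 only narrowly. The log2 fold change was 0.55 ± 0.19 (SE), with a 95% interval of 0.13 to 0.98 and an edgeR adjusted p of 0.101, so the change was not called. Complete separation with KO higher was seen for 3 of the 8 transcripts, against 15.5% of all tested; for KO lower it was 1 of 8, against 15.3%. Its ratio to Hsp90ab1 was 0.283, 0.255 and 0.278 in WT and 0.215, 0.216 and 0.233 in KO. This ratio was lower by 0.30 ± 0.06 on the log2 scale in KO, again without overlap (exact two-sided permutation p = 0.1, adjusted 0.125). Footprints on Stip1 were thus fewer relative to those on Hsp90ab1 in each KO library than in any WT library, although the Stip1 mean was higher in KO.

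Hspa8 (ENSMUST00000015800.15, length value 637, gene at chr9:40801276-40805202) encodes HSC70, the constitutive cytosolic HSP70, and held the most footprints of the 8 transcripts, per length as well as in all. Its levels were 1695, 2338 and 1435 CPM in WT and 1580, 2122 and 2225 CPM in KO. The highest value belonged to a WT library, and the groups overlapped. The log2 fold change was 0.12 ± 0.25 (SE; edgeR adjusted p = 0.802), with a 95% interval of -0.45 to 0.68. Hspa8 has processed pseudogenes in mouse that could share its footprints, so its level is less certain than its large counts imply.

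Dnajb1 (ENSMUST00000005620.9, length value 331, gene at chr8:83608175-83612653) encodes a J-domain protein that stimulates the ATPase of HSP70, and is strongly induced by heat shock. It was by far the lowest of the 8, also per length, with 12.8, 16.4 and 15.5 CPM in WT and 14.6, 16.7 and 16.98 CPM in KO. The groups overlapped. These levels rest on 57 to 113 counts per library, and the log2 fold change was 0.11 ± 0.18 (SE; edgeR adjusted p = 0.734; 95% interval -0.30 to 0.52). Its ratio to Hspa8 ran from 0.00702 to 0.0108 in WT and from 0.00763 to 0.00925 in KO. The difference in the log2 ratio was -0.01 ± 0.21 (SE; exact two-sided permutation p = 1), and it turned positive without WT replicate 3, at 0.18.

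Cct2 (ENSMUST00000047672.8, length value 526, gene at chr10:117050997-117063852) encodes a subunit of TRiC, the cytosolic chaperonin. It had 258.0, 312.5 and 214.4 CPM in WT and 384.2, 465.0 and 432.5 CPM in KO. All KO libraries lay above all WT libraries. The mean went from 261.6 ± 49.1 to 427.2 ± 40.7 CPM (SD, n = 3 each), which is 0.71 ± 0.19 as a log2 fold change (SE; edgeR adjusted p = 0.0436), with a 95% interval of 0.29 to 1.12. No other subunit of the complex was among the 8 transcripts, so this value describes footprints on Cct2 alone.

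Of the mitochondrial chaperones, Hspa9 fell and Hspd1 was not called. Hspa9 (ENSMUST00000025217.10, length value 670, gene at chr18:34937414-34954351) encodes mortalin, the matrix HSP70 that pulls proteins through the inner membrane. It had 537.7, 582.7 and 337.9 CPM in WT and 226.7, 257.0 and 257.9 CPM in KO. All KO libraries were below all WT libraries, and they lay close together. The mean went from 486.1 ± 130.3 to 247.2 ± 17.8 CPM (SD, n = 3 each), which is -0.97 ± 0.22 as a log2 fold change (SE; edgeR adjusted p = 0.0238), with a 95% interval of -1.46 to -0.49. Even as raw counts, with the KO libraries the deeper ones, it had 1306 to 1734 in KO and 1856 to 2391 in WT.

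Hspd1 (ENSMUST00000027123.14, length value 564, gene at chr1:55077833-55088243) encodes HSP60, the chaperonin of the matrix, and carries the run of 4 heat shock repeats printed above. It had 310.1, 437.3 and 266.7 CPM in WT and 389.7, 492.3 and 506.6 CPM in KO. KO replicates 2 and 3 lay above every WT library, and KO replicate 1 lay below WT replicate 2. The log2 fold change was 0.45 ± 0.22 (SE; edgeR adjusted p = 0.220), with a 95% interval of -0.03 to 0.94, so a change was not called.

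The ratio of Hspd1 to Hspa9 had the largest log2 difference between the genotypes of the 5 ratios. It was 0.577, 0.750 and 0.789 in WT and 1.72, 1.92 and 1.96 in KO. Hspa9 was thus the higher of this pair in each WT library and the lower in each KO library, in counts and also per length. The log2 ratio was higher by 1.41 ± 0.15 (SE) in KO, a 2.67-fold shift, with the smallest permutation p possible (exact two-sided p = 0.1, adjusted 0.125), and it stayed between 1.28 and 1.502 with each library left out. Hspd1 over Cct2, the matrix chaperonin over a cytosolic chaperonin subunit, was 1.20, 1.40 and 1.24 in WT and 1.014, 1.06 and 1.17 in KO. Its difference of -0.24 ± 0.09 on the log2 scale was small, though the groups did not overlap (exact two-sided permutation p = 0.1, adjusted 0.125).

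**Figure D2:**
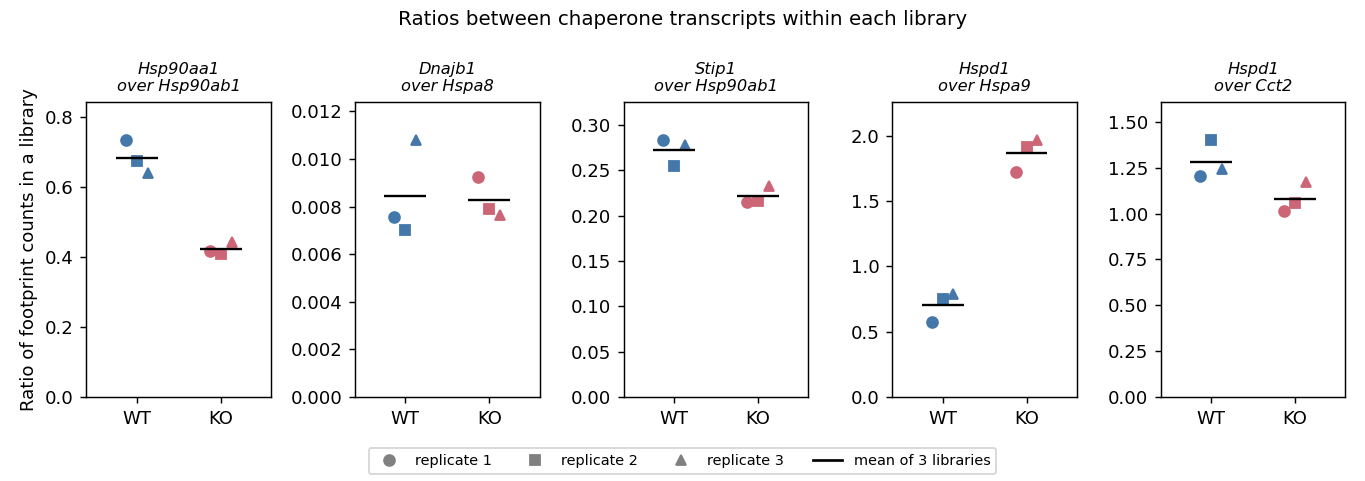
Ratio of footprint counts of one chaperone transcript to another within each library (linear axes from 0; WT blue, Mettl18 KO red; black lines are means of 3 libraries). Hsp90aa1 over Hsp90ab1 is 0.640 to 0.733 in WT and 0.407 to 0.441 in KO, and Hspd1 over Hspa9 is 0.577 to 0.789 in WT and 1.72 to 1.96 in KO, whereas Dnajb1 over Hspa8 overlaps.

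The 8 transcripts together took 0.437%, 0.528% and 0.373% of the counts over distinct rows in the WT libraries. In the KO libraries they took 0.452%, 0.542% and 0.553%. These totals overlapped between genotypes. The make-up of that total is given as a description. Hsp90ab1 formed 17.3% ± 1.05 of the 8 transcripts' counts in WT and 25.4% ± 0.579 in KO, and Hspa9 formed 11.01% ± 1.67 and 4.64% ± 0.348 (SD, n = 3 each). Cct2 formed 5.98% ± 0.319 in WT and 8.01% ± 0.602 in KO. Hspa8, the largest part, formed 41.3% ± 0.695 in WT and 36.7% ± 1.42 in KO, although its own level was not called as changed. Hspd1 formed 7.43%, 7.86% and 7.65% in WT and 8.66%, 8.63% and 8.62% in KO. The shares add up to 100% in each library, so a larger part for one transcript lowers the parts of the others, and no test was made on them.

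**Figure D3:**
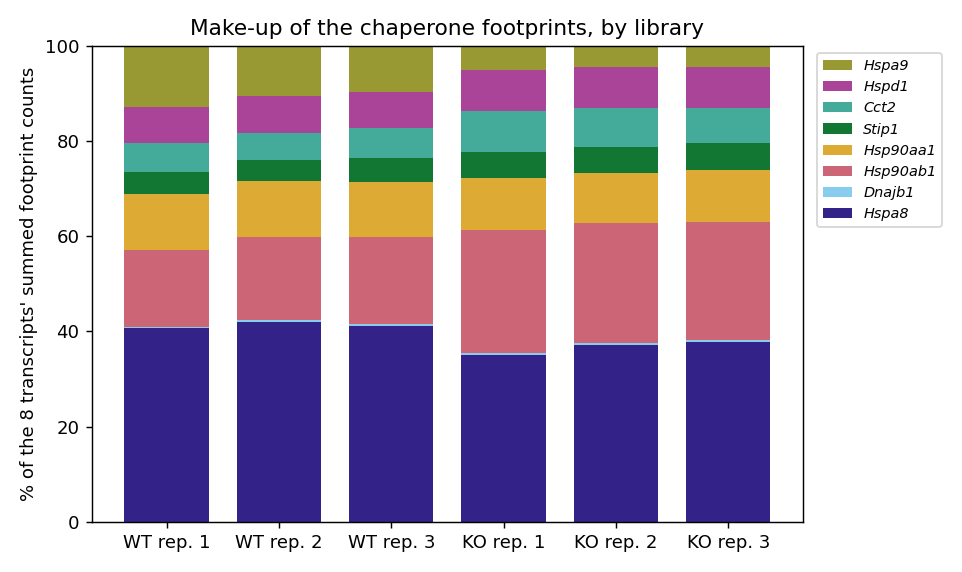
Stacked bars of each chaperone transcript's part of the 8 transcripts' summed counts, in percent, for every library. The Hsp90ab1 band is 16.1% to 18.2% in WT and 24.8% to 26.0% in KO, and the Hspa9 band at the top is 9.69% to 12.9% in WT and 4.39% to 5.04% in KO.

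Levels of different transcripts were compared per length, as CPM per 1000 units of the length value. In WT, Hspa8 came first at 2861 ± 729.9 and Hsp90ab1 next at 1065 ± 259.7 (SD, n = 3). Hspa9 (725.5 ± 194.5), Hsp90aa1 (716.8 ± 175.0), Hspd1 (599.4 ± 157.2), Cct2 (497.4 ± 93.4) and Stip1 (384.4 ± 71.0) followed, and each of these overlapped in range with the next. Dnajb1 came last at 45.01 ± 5.62, well apart from the rest. In KO, Hspa8 (3101 ± 544.0) and Hsp90ab1 (1900 ± 231.1) kept the first places on this scale. Hspd1 (820.7 ± 113.0), Cct2 (812.2 ± 77.3) and Hsp90aa1 (791.8 ± 111.1) overlapped in range, although Hspd1 was slightly above Hsp90aa1 within each KO library (691.0 against 670.7, 872.9 against 815.7 and 898.2 against 889.0). Stip1 (564.3 ± 85.0) then stood above Hspa9 (369.0 ± 26.5), and Dnajb1 (48.7 ± 3.95) was again last. Hspa9 therefore moved from the middle of the order in WT to the place before the last in KO.

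Within a genotype the chaperones moved together from library to library. WT replicate 2 was the highest WT library for 8 of the 8 transcripts, WT replicate 3 the lowest for 7 of them, and KO replicate 1 the lowest KO library for 8 of 8. The share of all transcripts with this library order was not computed, so the order is not shown to be particular to the chaperones. The coefficient of variation was 12.5% to 26.8% in WT and 7.18% to 17.5% in KO. The same libraries stood apart in their balance of long and short transcripts. Taken against the mean of all 6 libraries, the median log2 level of long transcripts (length value from 1000) less that of short ones (below 200) was highest in WT replicate 3 (0.47) and KO replicate 1 (0.18) and lowest in WT replicate 2 (-0.29). The 8 transcripts, with length values from 331 to 724, belong to neither class, and whether this balance bears on their levels was not tested. With each library's length trend removed, the log2 fold changes were 0.87 for Hsp90ab1, 0.74 for Cct2 and -0.95 for Hspa9, and all 3 passed the test. Of all transcripts tested, 5.98% rose and 5.11% fell with the trend removed.

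The 3 calls depended on which libraries were included. Hsp90ab1 and Cct2 lost their calls without WT replicate 1, WT replicate 3, KO replicate 2 or KO replicate 3, with log2 fold changes of 0.73 to 0.79 and 0.59 to 0.70 in those fits and edgeR adjusted p from 0.0607 to 0.220. The share of all transcripts that rose was 1.16% to 4.30% in the same fits. Hspa9 lost its call without WT replicate 1 or any of the KO replicates (log2 -1.003 to -0.905; edgeR adjusted p from 0.0596 to 0.124), in fits where 0.954% to 2.76% of all transcripts fell. None of the 3 was called with the close KO replicates 2 and 3 summed as 1 sample, where the log2 fold changes were 0.79, 0.68 and -1.002. Of all transcripts tested in that fit, 1.38% rose and 1.13% fell. Without WT replicate 2, which had the highest WT levels, 6.98% of all transcripts tested rose, and 4 of the 8 did: Hspd1 (log2 0.69, edgeR adjusted p = 0.0353) and Stip1 (0.72, 0.0287) joined Hsp90ab1 and Cct2. Direction was the same for Hsp90ab1, Hsp90aa1, Cct2, Stip1, Hspd1 and Hspa9 in each of the 18 alternatives. Hsp90aa1, which was not called in any of them, came as low as 0.0007 without WT replicate 3. A constant direction alone therefore does not support a call.

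**Figure D4:**
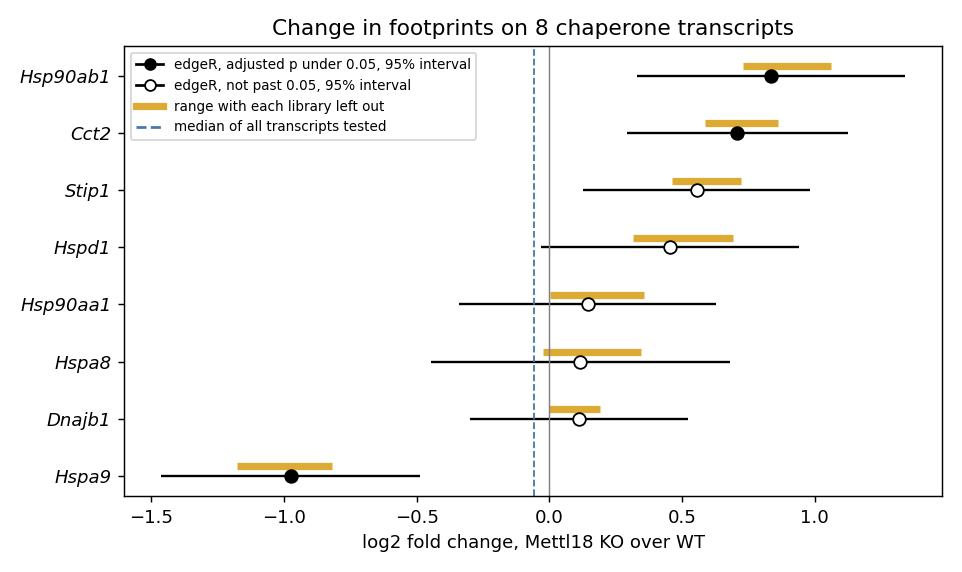
Log2 fold change (Mettl18 KO over WT) of each chaperone transcript with its 95% interval from edgeR; filled points have an adjusted p under 0.05, gold bars span the values with each library left out, and the dashed line is the median of all transcripts tested (-0.06). Hsp90ab1 (0.84) and Cct2 (0.71) lie to the right and Hspa9 (-0.97) to the left. Their gold bars stay clear of 0, but so do those of Stip1 (0.46 to 0.72), Hspd1 (0.31 to 0.69) and, barely, Hsp90aa1 (0.0007 to 0.36), which are not called. A bar clear of 0 therefore does not support a call.

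Of the 2 identifiers whose length value did not match, ENSMUST00000074846.13 had 53.3, 76.2 and 46.8 CPM in WT and 131.5, 167.9 and 180.1 CPM in KO. It rose by 1.45 ± 0.21 on the log2 scale (SE; edgeR adjusted p = 0.00397), with no overlap between genotypes. ENSMUST00000020630.7 had 90.9, 104.5 and 77.9 CPM in WT and 89.4, 116.0 and 116.3 CPM in KO, and its log2 fold change was 0.24 ± 0.17 (SE; edgeR adjusted p = 0.419) with overlapping groups. Neither was counted among the 8, and their planned ratio was not computed. The alternative fits were not examined for these 2 identifiers, so whether the rise depends on single libraries was not tested. Within 10 rows of ENSMUST00000074846.13, 3 rows had counts within 2-fold in every library, and whether they share its footprints was not tested.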

How the data were processed

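Each library's file, as the authors deposited it, gives raw footprint counts beside an identifier and a length value whose meaning the deposited files do not define. The submitters' processing notes name STAR 2.7.0a, UMI-tools 1.1.2, cutadapt 3.7, CASAVA 1.8 and mm10; the sources used here name no counting program, strand setting or annotation release. Isoforms have rows of their own that can share footprints. Within 10 rows of a member, rows with counts within 2-fold in every library numbered 1 for Hspa8, Hsp90aa1 and Hspd1 and 3 for Dnajb1. Hsp90ab1, Hspa9, Cct2 and Stip1 had none. Whether such rows share footprints with the members was not tested. Symbols came with the identifiers of the list. The length value matched for 8 of 10, and the file order of these 8 rows followed the chromosome order of their symbols in RefSeq (GRCm38.p6), which lists no Ensembl identifiers. The members, all named here by that rule, and the lists were chosen with earlier results of these data known. The planned lists of other chaperone genes and of cell type markers, and protein sequences, were not analysed here.

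Rows with identical counts were kept once (39355 distinct rows with a count). All of them entered edgeR 4.0.16 in R 4.3.3 (filterByExpr, TMM, quasi-likelihood F test, genotype as the only term), with each standard error taken as the fold change over the root of F. Ratios of raw counts within a library used an exact permutation test (scipy 1.17.1); of 6 planned ratios, 5 could be computed. Alternatives were other scalings and filters, DESeq2 1.42.0, voom in limma 3.58.1, a replicate block, equal totals, the length trend removed by loess, KO replicates 2 and 3 summed, and each library left out. The edgeR step was tested on simulated data.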

Additional observations from a re-analysis of the deposited data

How the results depend on the processing

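The number of chaperone transcripts that rose was 2 and the number that fell 1 under the 3 other scalings, the other filters, limma-voom, the Wald test of DESeq2, with no merging of identical rows, at equal totals and without the length trend. Of all transcripts tested, 3.87% to 6.08% rose and 3.12% to 5.76% fell under these settings. With the replicate block the numbers were 0 and 1 (Hsp90ab1 log2 0.85, edgeR adjusted p = 0.0627; Cct2 0.72, 0.0592; Hspa9 -0.94, 0.0366). Of all transcripts tested with the block, 3.82% rose and 3.09% fell. Same-numbered libraries deviated together for replicate 2 but not for replicates 1 and 3 (correlations of 0.50, -0.08 and -0.48 across transcripts). Pairs of unlike number ran from -0.67 (WT replicate 2 with KO replicate 1) to 0.70 (WT replicate 3 with KO replicate 1). Some libraries thus deviated together across genotypes, but not by number, so the numbers are not taken as pairs. With the block the 5 ratio differences are the same by construction. With KO replicates 2 and 3 summed the numbers were 0 and 0, with fewer samples in the test. In that fit the shares of all transcripts that rose and fell were also smaller, at 1.38% and 1.13%. When single libraries were left out, 0 to 4 of the 8 rose and 0 to 1 fell, while the share of all transcripts that rose ran from 1.16% to 6.98% and the share that fell from 0.954% to 5.40%. The median log2 fold change of the 8 was 0.22 with library totals alone and 0.23 to 0.52 with each library left out. With each left out, Hspa8 ran from -0.024 (without WT replicate 3) to 0.34 and Dnajb1 from -0.0034 (without WT replicate 1) to 0.19, so their direction is not settled. The ratio of Dnajb1 to Hspa8 was -0.13 to 0.18 and positive without WT replicate 3, KO replicate 2 (0.02) or KO replicate 3 (0.04); the cause was not tested. The other 4 ratios kept their sign in 8 of 8 alternatives. Their groups did not overlap, so leaving out a library could not have changed the sign.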
